A study of Mus musculus with 36 samples.

Results

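A set of 9 genes that interferons switch on was followed in mouse kidney under a high-fat diet and under normal chow at 6 times of day. They were Irf7, Oas1a, Oasl2, Ifit1, Ifit3, Isg15, Usp18, Bst2 and Cxcl10, and each was taken by its symbol. All 9 were present among the 24066 genes used from the deposited tables, and all 9 passed the filter on low values that left 11144 genes for testing. That filter was a mean of at least 1 FPKM over all 36 kidneys. Ifit1 passed it only through the high-fat kidneys, with means of 1.19 FPKM there and 0.821 FPKM in normal chow kidneys. The high-fat group and the normal chow group each held 18 kidneys, 3 at each of zeitgeber times (ZT) 0, 4, 8, 12, 16 and 20, where ZT counts hours from lights on. All mice were male and wild-type, of the strain C57BL/6 (C57BL/6J in the sample labels), and were kept on a cycle of 12 h light and 12 h dark with food freely available. The diets began at 6 weeks of age, and 16 weeks is the harvest time in the labels. Nothing in the labels ties a mouse to a litter or a batch, and each library holds RNA of kidney tissue with its cell types mixed. Fewer cells of a type and less RNA per cell cannot be told apart in such samples.

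Interferons are secreted proteins that cells release on sensing viral or misplaced nucleic acid. Type I interferons bind the IFNAR receptor, whose JAK kinases activate transcription factors that bind a DNA element called ISRE upstream of their target genes. Interferon-gamma acts through its own receptor, and many of its target genes carry a second element, GAS. In the kidney these genes are known as markers of antiviral and inflammatory signalling in tubule cells as well as in resident and recruited immune cells.

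The values are FPKM, which relate the fragments of a gene to its transcript length and to the total of the library. The files hold no read totals. Depth estimated from the smallest steps between low values ranged from 4770000 to 20710000 fragments with a median of 14700000, and the shallowest libraries were the high-fat ZT4 replicate 5 and the normal chow ZT8 replicate 4. The proximal tubule markers were abundant in every kidney and summed to 66290 to 90193 FPKM in the high-fat kidneys and 48583 to 93487 FPKM in the normal chow kidneys. Adrenal transcripts were present in 4 normal chow libraries (ZT0 replicate 5, ZT4 replicates 2 and 3, ZT16 replicate 4), where the steroid enzyme gene Cyp21a1 lay between 20.2 and 1346 FPKM. Calls of the 9 genes that changed without these 4 libraries are given beside the affected values, as are calls of the interferon pathway lists that were lost. Genes of those lists that passed only without these 4 libraries are not given.

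The upstream DNA of these genes is shown as a description. The genes were chosen as known targets of interferon, so ISRE letters upstream of them are not independent of that choice. They also hold no measurement from these kidneys. RefSeq windows on GRCm38.p6, 250 bases before the annotated start, were found for 8 of the 9 genes, all but Usp18. The ISRE core was searched on both strands as GAAA, any 2 bases, GAAA. It occurred in 6 of the 8 windows, against 2.98% of all 32851 windows of the same length. The stretches below run 5′ to 3′ on the strand of the gene, and capitals mark the ISRE core matches, and in Cxcl10 also a kappaB match.
Oas1a: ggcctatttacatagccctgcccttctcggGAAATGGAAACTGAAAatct
Isg15: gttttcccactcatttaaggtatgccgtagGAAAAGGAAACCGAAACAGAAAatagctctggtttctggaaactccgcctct
Ifit1: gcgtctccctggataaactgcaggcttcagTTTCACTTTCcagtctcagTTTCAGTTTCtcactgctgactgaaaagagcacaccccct
Ifit3: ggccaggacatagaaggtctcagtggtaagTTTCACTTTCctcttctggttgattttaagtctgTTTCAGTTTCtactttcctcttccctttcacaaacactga
Bst2: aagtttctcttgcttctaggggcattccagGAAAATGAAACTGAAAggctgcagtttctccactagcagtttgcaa
Cxcl10: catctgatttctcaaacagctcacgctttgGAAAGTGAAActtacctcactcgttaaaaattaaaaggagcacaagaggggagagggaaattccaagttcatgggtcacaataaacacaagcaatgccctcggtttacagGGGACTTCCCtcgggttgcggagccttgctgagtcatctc

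These stretches lie at chr5:120907526-120907575 (minus strand, Oas1a), chr4:156200845-156200926 (minus strand, Isg15), chr19:34640755-34640843 (plus strand, Ifit1), chr19:34583343-34583446 (plus strand, Ifit3), chr8:71537557-71537632 (minus strand, Bst2) and chr5:92348953-92349132 (minus strand, Cxcl10). The matches overlapped in Isg15, which had 3, and in Oas1a and Bst2, which had 2 each, while the 2 matches of Ifit1 and of Ifit3 stood apart. In Ifit1 and Ifit3 every match was on the opposite strand and therefore reads as TTTC, any 2 bases, TTTC. The Irf7 and Oasl2 windows held no ISRE core match. The GAS letters, TTC, any 3 bases, GAA, occurred in the windows of 2 genes, Oas1a and Bst2 (7.02% of all windows), and the Bst2 match overlaps its ISRE match. The kappaB letters, GGGA, any base, TT, any base, CC, a site bound by NF-kappaB, occurred in Cxcl10 (0.98% of all windows). The E-box CACGTG, bound by the clock factors CLOCK and BMAL1, occurred in 0 of the 8 windows (6.02% of all windows). A letter match is a description of the sequence and not a measured binding site.

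Over all 6 times, 6 of the 9 genes rose under the high-fat diet and 0 fell (limma on log2(FPKM + 0.5), Benjamini-Hochberg adjusted p under 0.05 over 11144 genes). Of all tested genes 5.25% rose and 11.4% fell. The 9 genes were chosen with earlier results of these data known. The shares and medians set beside them therefore describe the set and do not test it. The 6 were Cxcl10, Irf7, Oas1a, Ifit1, Isg15 and Ifit3. Among them Ifit1 passed the filter on low values only through its high-fat kidneys. The median difference of the 9 genes was 0.35 log2, against a median of -0.03 log2 over all tested genes. The point estimate was above 0 at all 6 times in 6 genes (Irf7, Oas1a, Oasl2, Ifit1, Ifit3 and Cxcl10), which was the case in 6.31% of all genes, and at 5 of 6 times in Isg15, Usp18 and Bst2.

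**Figure D1:**
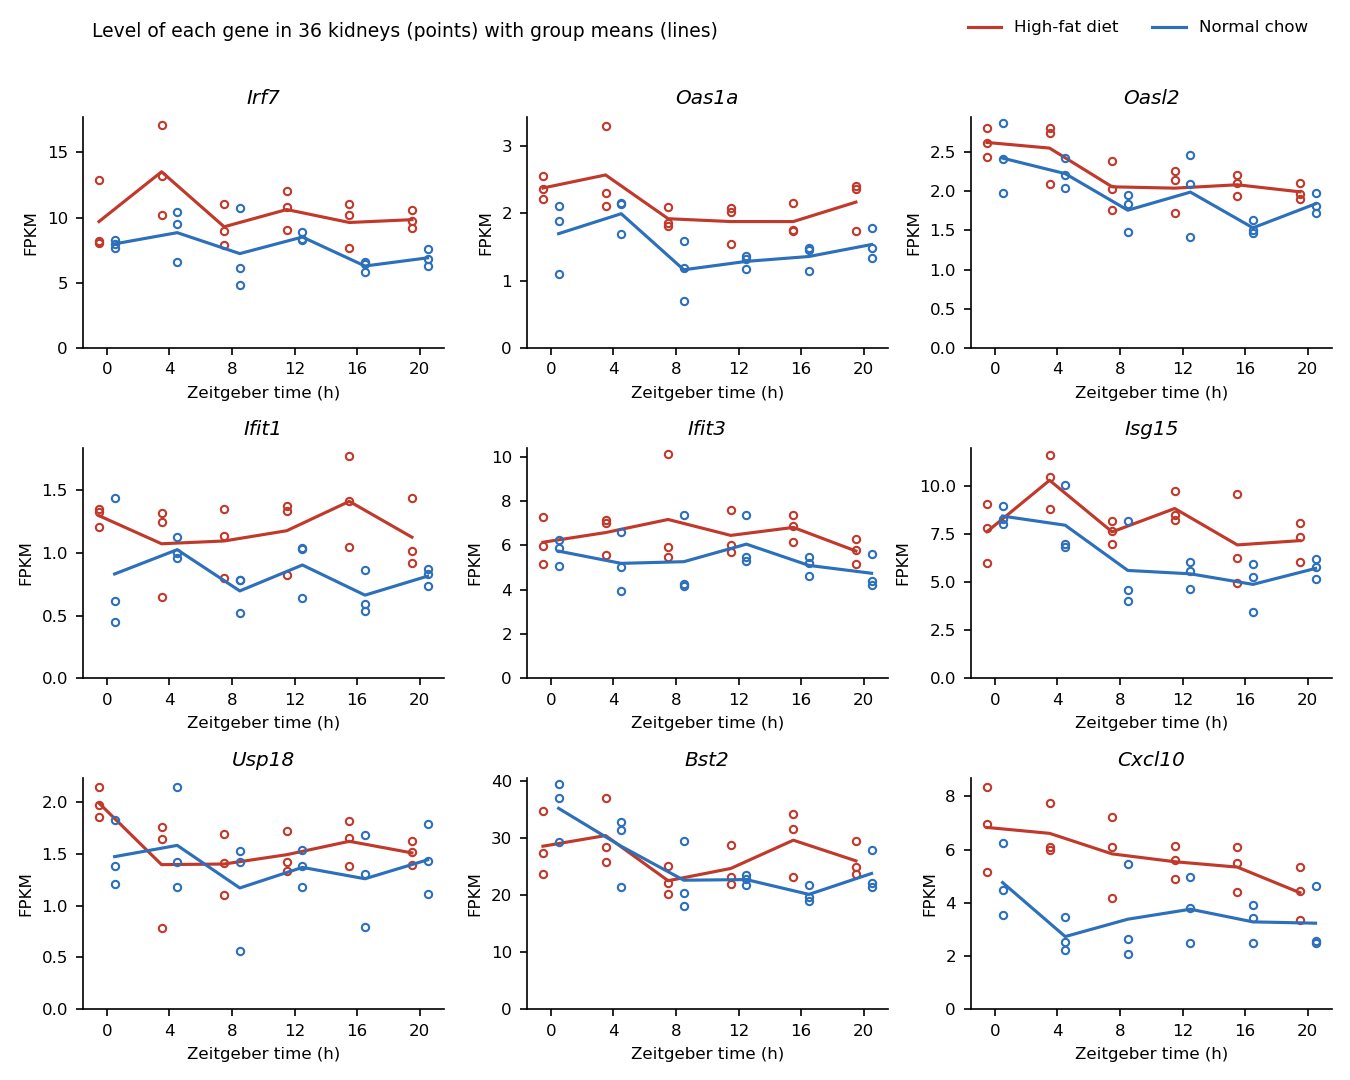
Level of each of the 9 genes in FPKM (vertical axis, from 0) against zeitgeber time in hours (horizontal axis). Points are single kidneys, lines join the means of 3 kidneys, red is the high-fat diet and blue is normal chow. The red line lies above the blue line at all 6 times in Irf7, Oas1a, Oasl2, Ifit1, Ifit3 and Cxcl10, and below it at ZT0 in Bst2 and Isg15, at ZT4 in Usp18 and at ZT8 in Bst2 (22.5 FPKM in high-fat and 22.6 FPKM in normal chow kidneys).

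Irf7 (GRCm38 chr7:141262706-141266481, minus strand), the transcription factor that amplifies type I interferon production, had 7.69 FPKM in the lowest, 10.2 FPKM in the median and 17.1 FPKM in the highest high-fat kidney. In the normal chow kidneys these values were 4.86, 7.63 and 10.7 FPKM. The ranges overlapped, yet all 18 high-fat kidneys were above the normal chow median and 2 of 18 normal chow kidneys were above the high-fat median. Irf7 averaged 10.4 ± 2.34 FPKM in high-fat kidneys and 7.62 ± 1.60 FPKM in normal chow kidneys (SD, n = 18 each), and rose by 0.43 ± 0.09 log2 (SE; limma, adjusted p = 0.000695).

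Oas1a (chr5:120896256-120907521, minus strand) encodes an oligoadenylate synthetase, an enzyme that senses viral RNA and activates RNase L. It had 1.54, 2.11 and 3.31 FPKM in the lowest, median and highest high-fat kidney, against 0.698, 1.46 and 2.16 FPKM in normal chow kidneys. Again all 18 high-fat kidneys were above the normal chow median, and 3 normal chow kidneys were above the high-fat median. Oas1a rose by 0.41 ± 0.07 log2, with means of 2.13 ± 0.405 FPKM in high-fat kidneys and 1.51 ± 0.398 FPKM in normal chow kidneys (SD, n = 18 each; limma, adjusted p = 0.000226). Of the 50-base stretches of its transcripts, 57.6% are identical to stretches of its neighbour Oas1g, so its value is uncertain where reads are shared. Oas1g itself was under the filter, with 0.685 ± 0.178 FPKM in high-fat kidneys and 0.520 ± 0.186 FPKM in normal chow kidneys. The related Oasl2 (chr5:114896936-114912234, plus strand) had a median of 2.12 FPKM (1.72 to 2.81) in high-fat kidneys and 1.96 FPKM (1.41 to 2.88) in normal chow kidneys. Its 2 groups covered nearly the same range, and its difference of 0.15 ± 0.06 log2 did not pass (limma, adjusted p = 0.0641). It passed in 10 of 52 alternatives, among them median ratio rescaling of the libraries (0.18 ± 0.06 log2, adjusted p = 0.0342; limma). Leaving out any of 5 single libraries also let it pass, namely the high-fat ZT4 replicate 4, ZT8 replicate 2 or ZT12 replicate 5, or the normal chow ZT0 replicate 5 or ZT12 replicate 5 (adjusted p = 0.0301 to 0.0474; limma). Without the 4 libraries with adrenal transcripts it passed as well (0.19 ± 0.06 log2, adjusted p = 0.0362; limma).

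Ifit1 (chr19:34640871-34650009, plus strand), whose protein binds viral RNA with foreign cap structures, was the lowest of the 9 genes. It had 0.649, 1.28 and 1.77 FPKM in the lowest, median and highest high-fat kidney, against 0.447, 0.807 and 1.43 FPKM in normal chow kidneys. Only 1 normal chow kidney was above the high-fat median, and 16 of 18 high-fat kidneys were above the normal chow median. That normal chow kidney was ZT0 replicate 5, the library with the most Cyp21a1 (1346 FPKM). Ifit1 rose by 0.36 ± 0.09 log2, with means of 1.19 ± 0.276 FPKM in high-fat kidneys and 0.821 ± 0.249 FPKM in normal chow kidneys (SD, n = 18 each; limma, adjusted p = 0.00498). With no filter on low values the Ifit1 call was kept (0.36 ± 0.09 log2, limma, adjusted p = 0.00691). Its values rested on an estimated 8 to 65 fragments per kidney, which is among the smallest numbers of the 9 genes. Ifit3 (chr19:34583531-34588731, plus strand), which in human cells stabilises IFIT1, had 5.14, 6.10 and 10.1 FPKM in the lowest, median and highest high-fat kidney, against 3.94, 5.24 and 7.39 FPKM in normal chow kidneys. Ifit3 rose by 0.26 ± 0.08 log2, with means of 6.49 ± 1.19 FPKM in high-fat kidneys and 5.35 ± 1.04 FPKM in normal chow kidneys (SD, n = 18 each; limma, adjusted p = 0.0293). This call was lost in 9 of 53 alternatives, with values of 0.10 to 0.30 log2 over all of them. Single libraries whose removal lost it were the high-fat ZT12 replicate 4 (adjusted p = 0.0513), the normal chow ZT8 replicate 4 (adjusted p = 0.0511) and the normal chow ZT12 replicate 3 (adjusted p = 0.0508), and it was also lost without the 4 libraries with adrenal transcripts (adjusted p = 0.0611; limma). Ifit3 shares 51.2% of its 50-base stretches with Ifit3b, which rose by 0.25 ± 0.08 log2 (limma, adjusted p = 0.0281), with means of 2.52 ± 0.676 FPKM in high-fat kidneys and 2.01 ± 0.320 FPKM in normal chow kidneys, and did not pass without those 4 libraries (Ifit3b adjusted p = 0.0541; limma).

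Isg15 (chr4:156199424-156200818, minus strand) encodes a ubiquitin-like protein that is attached to other proteins in interferon-treated cells. It had 4.96, 8.13 and 11.6 FPKM in the lowest, median and highest high-fat kidney, against 3.45, 5.99 and 10.05 FPKM in normal chow kidneys. The ranges overlapped widely, with 16 high-fat kidneys above the normal chow median and 4 normal chow kidneys above the high-fat median. Isg15 rose by 0.35 ± 0.09 log2, with means of 8.08 ± 1.69 FPKM in high-fat kidneys and 6.34 ± 1.79 FPKM in normal chow kidneys (SD, n = 18 each; limma, adjusted p = 0.00628). Usp18 (chr6:121245906-121270917, plus strand), the protease that removes ISG15 and damps signalling at the interferon receptor, had a median of 1.64 FPKM (0.786 to 2.15) in high-fat kidneys and 1.40 FPKM (0.563 to 2.14) in normal chow kidneys. Its difference of 0.15 ± 0.09 log2 did not pass (limma, adjusted p = 0.307), and it rested on an estimated 6 to 69 fragments per kidney. Of the 3 tested genes that attach ISG15 to its targets, Uba7, Ube2l6 and Trim25, 0 passed in either direction, with differences of 0.01 to 0.07 log2 (5.25% of all tested genes rose and 11.4% fell).

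Bst2 (chr8:71534255-71537456, minus strand), also called tetherin, holds budding viruses at the cell surface and had the highest level of the 9 genes per length of transcript. It had 20.2, 25.4 and 37.0 FPKM in the lowest, median and highest high-fat kidney, against 17.98, 22.4 and 39.4 FPKM in normal chow kidneys. The highest single value was that of the normal chow ZT0 replicate 5, the library with the most Cyp21a1 (1346 FPKM). Its difference over all times was 0.10 ± 0.07 log2 and did not pass (limma, adjusted p = 0.414).

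Cxcl10 (chr5:92346638-92348889, minus strand), the chemokine that draws T cells and NK cells through the receptor CXCR3, had the largest difference of the 9. It had 3.35, 5.79 and 8.37 FPKM in the lowest, median and highest high-fat kidney, against 2.06, 3.44 and 6.26 FPKM in normal chow kidneys. Of the high-fat kidneys 17 of 18 were above the normal chow median, and of the normal chow kidneys 1 of 18 was above the high-fat median. Cxcl10 averaged 5.76 ± 1.29 FPKM in high-fat kidneys and 3.52 ± 1.22 FPKM in normal chow kidneys (SD, n = 18 each) and rose by 0.67 ± 0.11 log2, or 1.59-fold on the log2(FPKM + 0.5) scale (limma, adjusted p = 9.35e-05). The call held in all 52 alternatives, with values of 0.49 to 0.73 log2. Cxcl9, a second ligand of CXCR3, also rose (0.41 ± 0.10 log2, adjusted p = 0.00559), with 1.22 ± 0.221 FPKM in high-fat kidneys and 0.828 ± 0.343 FPKM in normal chow kidneys (SD, n = 18 each; limma). Cxcl9 passed the filter on low values only through its high-fat kidneys. Its call was lost with a macrophage marker score (0.27 log2, adjusted p = 0.128) or a T and NK cell marker score (0.24 log2, adjusted p = 0.148) as a covariate (limma). The third ligand Cxcl11 and the receptor Cxcr3 were under the filter, with means of 0.0999 FPKM (Cxcl11) and 0.707 FPKM (Cxcr3) in high-fat kidneys and 0.0599 FPKM (Cxcl11) and 0.502 FPKM (Cxcr3) in normal chow kidneys.

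The order of the mean levels per length over all 36 kidneys was Bst2 (26.2 FPKM), Irf7 (9.03), Isg15 (7.21), Ifit3 (5.92), Cxcl10 (4.64), Oasl2 (2.10), Oas1a (1.82), Usp18 (1.48) and Ifit1 (1.01). Bst2 was above Irf7 in all 36 kidneys, and Cxcl10 above Oasl2 in 35. Between the other neighbours the order was less fixed: Isg15 exceeded Ifit3 in 29 kidneys, as Oasl2 did Oas1a and Oas1a did Usp18, Irf7 exceeded Isg15 in 30, Ifit3 exceeded Cxcl10 in 31 and Usp18 exceeded Ifit1 in 34.

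Some markers of immune cells moved with the same contrast, 3 of 10 tested for macrophages, 1 of 2 for T and NK cells, 2 of 2 for B cells, 1 of 2 for dendritic cells and 0 of 2 for neutrophils. In that contrast 5.25% of all tested genes rose and 11.4% fell. Of the 10 tested macrophage and monocyte markers 3 rose and 0 fell, with a median difference of 0.24 log2, and the summed level of the 14 listed genes was 102 to 255 FPKM in high-fat kidneys and 88.3 to 228 FPKM in normal chow kidneys. The 3 were Ccr2 (0.40 ± 0.09 log2, adjusted p = 0.00205), Cd68 (0.38 ± 0.10 log2, adjusted p = 0.00997) and C1qb (0.28 ± 0.10 log2, adjusted p = 0.0412; limma). The 10 listed T and NK cell markers summed to 3.71 to 11.4 FPKM in high-fat kidneys and 2.45 to 7.83 FPKM in normal chow kidneys, and of the 2 tested, Cd3g rose (0.38 ± 0.13 log2, adjusted p = 0.0440; limma) and Nkg7 did not pass. The B cell markers were Cd79a (0.25 ± 0.08 log2, adjusted p = 0.0220) and Cd79b (0.33 ± 0.10 log2, adjusted p = 0.0170), and the dendritic cell marker was Itgax (0.40 ± 0.09 log2, adjusted p = 0.00130; limma). The neutrophil markers S100a8 (0.01 ± 0.23 log2, adjusted p = 0.98) and S100a9 (0.49 ± 0.19 log2, adjusted p = 0.0702; limma) did not pass, and the 4 measured genes of that list summed to 1.32 to 8.61 FPKM in high-fat kidneys and 0.165 to 8.36 FPKM in normal chow kidneys. The 2 plasmacytoid dendritic cell markers were under the filter and summed to 0.0685 to 0.528 FPKM in high-fat kidneys and 0 to 0.396 FPKM in normal chow kidneys. Of the 7 adipocyte markers 6 fell and 1 rose, the leptin gene Lep, and they summed to 89.0 to 819 FPKM in high-fat kidneys and 207 to 2914 FPKM in normal chow kidneys. No listed marker of these types was at 0 in all 36 libraries.

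A marker score, the mean log2 level of a marker list, was entered into the fit as a covariate, and with the macrophage or the T and NK cell score the diet difference of each of the 9 genes was lower than without it. With the macrophage and monocyte score, 2 of the 9 genes rose, Cxcl10 (0.61 ± 0.14 log2, adjusted p = 0.00433) and Oas1a (0.34 ± 0.09 log2, adjusted p = 0.0126; limma), against 3.81% of all genes. With the T and NK cell score, an alternative added after the data were seen, 3 rose, namely Oas1a (0.34 ± 0.09 log2, adjusted p = 0.00786), Cxcl10 (0.49 ± 0.12 log2, adjusted p = 0.00620) and Irf7 (0.24 ± 0.08 log2, adjusted p = 0.0395; limma), against 3.34% of all genes. With the adipocyte score 5 rose (Cxcl10, Ifit1, Irf7, Oas1a and Oasl2; limma), against 2.67% of all genes. Isg15 (0.35 ± 0.11 log2, adjusted p = 0.0581) and Ifit3 (0.23 ± 0.11 log2, adjusted p = 0.221) did not pass (limma). This score differed between the diets, with 3.53 ± 1.44 log2 in high-fat kidneys and 5.14 ± 1.01 log2 in normal chow kidneys (SD, n = 18 each). The SE of each of the 9 genes was larger with the adipocyte score and also with the macrophage score. For Isg15 it was 0.11 log2 with either score against 0.09 log2 without, so a lost call can reflect lost precision. With the T and NK cell score the SE was larger in some genes (Isg15, 0.0921 against 0.0874 log2) and smaller in others (Ifit3, 0.0790 against 0.0823 log2). The Bst2 difference was below 0 with the macrophage score (-0.07 ± 0.08 log2) and with the T and NK cell score (-0.06 ± 0.07 log2), in both cases without passing. The macrophage score itself was 2.30 ± 0.24 log2 in high-fat kidneys and 2.10 ± 0.19 log2 in normal chow kidneys (SD, n = 18 each), and the T and NK cell score was 0.07 ± 0.16 log2 in high-fat kidneys and -0.12 ± 0.18 log2 in normal chow kidneys.

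**Figure D2:**
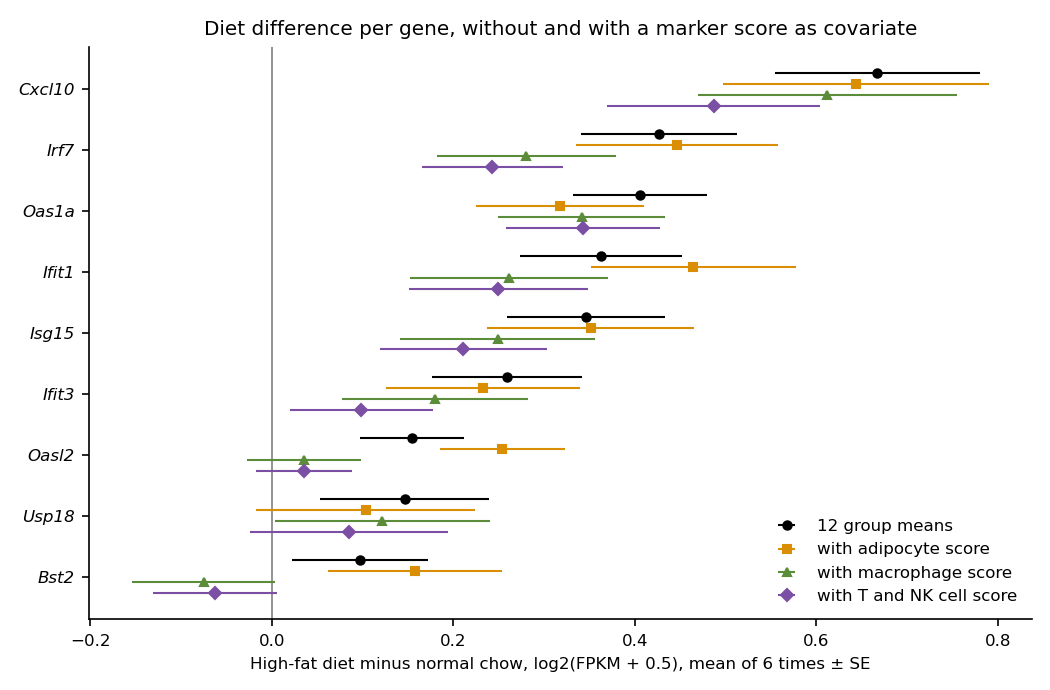
Difference between high-fat diet and normal chow per gene on the log2(FPKM + 0.5) scale (horizontal axis), as the mean of 6 times with bars of 1 SE, for 36 kidneys. Black circles are the fit with 12 group means, and coloured symbols add an adipocyte, macrophage or T and NK cell score. Cxcl10 stays between 0.49 and 0.67 log2 in all 4 fits, while Bst2 lies below 0 in 2 of them.

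At single times the diet difference passed for 1 of the 54 gene and time pairs, Cxcl10 at ZT4. There the high-fat kidneys had 5.97, 7.75 and 6.11 FPKM and the normal chow kidneys had 2.21, 3.45 and 2.53 FPKM. The groups were separate, with every high-fat kidney above every normal chow kidney. The difference was 1.15 ± 0.28 log2 (limma, adjusted p = 0.0290; 0.476% of all genes rose at ZT4). It was lost without the high-fat ZT4 replicate 4 (adjusted p = 0.128), the high-fat ZT4 replicate 5 (adjusted p = 0.0665) or the normal chow ZT4 replicate 4 (adjusted p = 0.0611), with values of 1.04, 1.20 and 1.11 log2. Without the 4 libraries with adrenal transcripts 3 pairs passed: Cxcl10 at ZT4 (1.22 ± 0.38 log2, adjusted p = 0.0131), Irf7 at ZT4 (0.96 ± 0.30 log2, adjusted p = 0.0121) and Ifit1 at ZT0 (0.80 ± 0.21 log2, adjusted p = 0.0409; limma). In that fit normal chow at ZT4 is a single library, replicate 4, which is assumed to vary like the other groups. All 9 genes were below their group means in this library. Irf7 had 6.57 FPKM in it, against 9.51 and 10.4 FPKM in the normal chow ZT4 libraries left out. With all libraries the Irf7 difference at ZT4 was 0.58 log2.

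At ZT0, ZT8, ZT12, ZT16 and ZT20 no pair passed (limma; over all genes 0.637%, 0.108%, 0.162%, 0.269% and 0.126% rose at these times). At an unadjusted p under 0.05, 2, 3, 2, 6 and 2 of the 9 genes were higher at these times, against 3.79%, 4.21%, 2.23%, 3.28% and 2.12% of all genes, and 2 were at ZT4, against 3.23%. ZT16 had the most genes whose groups did not overlap. There all 3 high-fat kidneys were above all 3 normal chow kidneys in 7 genes, Irf7, Oas1a, Oasl2, Ifit1, Ifit3, Bst2 and Cxcl10, which was the case in 7.12% of all genes. At the other times this held for 2 genes at ZT0 (6.76% of all genes), 1 at ZT4 (2.34%), 2 at ZT8 (7.83%), 3 at ZT12 (5.43%) and 2 at ZT20 (6.08%). In 0 pairs were all high-fat kidneys below all normal chow kidneys, and 0 pairs fell by the test (over all genes 0.951%, 1.13%, 0.224%, 0.206%, 0.287% and 0.135% fell at ZT0, ZT4, ZT8, ZT12, ZT16 and ZT20).

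The values at ZT16 show how far the groups stood apart. Ifit1 had 1.41, 1.77 and 1.05 FPKM in high-fat kidneys, against 0.860, 0.537 and 0.589 FPKM in normal chow kidneys, a difference of 0.71 ± 0.22 log2 (limma, adjusted p = 0.192). Irf7 had 7.69, 11.02 and 10.2 FPKM in high-fat kidneys, against 5.80, 6.41 and 6.62 FPKM in normal chow kidneys (0.57 ± 0.21 log2, adjusted p = 0.378; limma). Bst2 had 23.1, 34.1 and 31.5 FPKM in high-fat kidneys, against 21.7, 19.7 and 18.9 FPKM in normal chow kidneys (0.53 ± 0.18 log2, adjusted p = 0.307; limma). In Irf7 and Bst2 the lowest high-fat kidney was replicate 1, and in Ifit1 it was replicate 4. Isg15 and Usp18 were the 2 genes that overlapped at ZT16: Isg15 had 4.96, 9.60 and 6.26 FPKM in high-fat kidneys and 5.93, 3.45 and 5.29 FPKM in normal chow kidneys. At ZT0 Bst2 had the opposite direction, with 34.6, 23.7 and 27.3 FPKM in high-fat kidneys and 36.9, 29.2 and 39.4 FPKM in normal chow kidneys, a difference of -0.30 ± 0.18 log2 that did not pass (limma, adjusted p = 0.485).

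**Figure D3:**
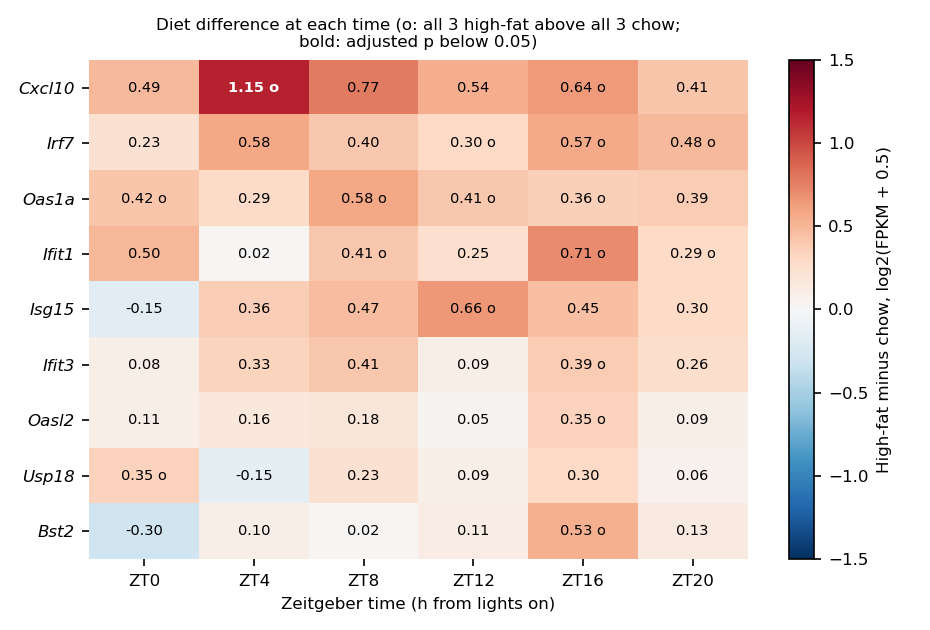
Difference between high-fat diet and normal chow at each zeitgeber time (columns) for each gene (rows), on the log2(FPKM + 0.5) scale given by the colour bar and printed in each cell, 3 kidneys per group. A circle marks pairs in which all 3 high-fat kidneys were above all 3 normal chow kidneys, and bold type marks an adjusted p under 0.05. Cxcl10 at ZT4 (1.15) is the single bold cell, and the ZT16 column holds 7 circles.

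No test showed that the diet difference depended on the time of day. The diet by time test passed for 0 of the 9 genes and for 0 at an unadjusted p under 0.05 (limma F test, adjusted p = 0.999 for each), against 0.0179% of all genes at the adjusted and 2.75% at the unadjusted threshold. A difference in 24 h rhythm between the diets likewise passed for 0 of the 9 genes, against 0.0269% of all genes, and for 0 at an unadjusted p under 0.05, against 3.17% of all genes (limma F test).

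Daily rhythms were tested within each diet. Under the high-fat diet 0 of the 9 genes were rhythmic (limma F test of a fitted 24 h cosine curve; Oas1a and Oasl2 were the 2 genes with an unadjusted p under 0.05, as were 20.8% of all genes), where 7.3% of all genes were. Under normal chow 2 were, Isg15 (peak-to-trough difference 0.73 log2, fitted peak at 1.83 h, adjusted p = 0.0472) and Bst2 (0.64 log2, fitted peak at 1.34 h, adjusted p = 0.0482; limma), where 7.77% of all genes were. Under normal chow Isg15 averaged 8.44 ± 0.477 FPKM at ZT0 and 4.89 ± 1.29 FPKM at ZT16, and Bst2 averaged 35.2 ± 5.29 FPKM at ZT0 and 20.1 ± 1.47 FPKM at ZT16 (SD, n = 3 each). Both calls stood close to the threshold and were lost without the 4 libraries with adrenal transcripts, of which 3 are at ZT0 and ZT4 (Isg15 adjusted p = 0.293, Bst2 adjusted p = 0.318; limma). They were also lost without ZT0 and ZT4 (Isg15 adjusted p = 0.976, Bst2 adjusted p = 0.956; limma). Single normal chow libraries were enough to lose both calls: ZT0 replicates 1, 4 and 5, ZT4 replicates 2 and 3, ZT8 replicate 4, ZT12 replicate 5, ZT16 replicates 4 and 5, and ZT20 replicates 1 and 5 (adjusted p = 0.0504 to 0.109; limma). Bst2 alone was lost without ZT12 replicate 3 or ZT16 replicate 1 (adjusted p = 0.0573 and 0.0702), and Isg15 alone without ZT20 replicate 3 (adjusted p = 0.0572; limma).

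Some of the genes also varied together between mice of the same diet and time. After each group's mean was subtracted, 35 of the 36 gene pairs had a Pearson r above 0 over the 36 kidneys, with a median of 0.36 (Spearman 0.33) and a range of -0.07 to 0.87. The median r between any of the 9 genes and all other tested genes was 0.038. Of the 36 pairs 12 passed a two-sided permutation test within groups for Pearson r and 11 for Spearman rho (100000 permutations, adjusted over the 36 pairs). Irf7 and Bst2 had the highest r (0.87, p = 2e-05, adjusted p = 0.00072; Spearman 0.83, p = 3e-05; 0.84 without the 2 kidneys farthest from the Irf7 median; permutation). Ifit3 and Cxcl10 followed (0.75, p = 5e-05, adjusted p = 0.0009; Spearman 0.72, p = 7e-05; 0.69 without the 2 farthest kidneys; permutation). Oas1a had no pair that passed by Pearson r, and its r with Oasl2 was the single negative value.

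**Figure D4:**
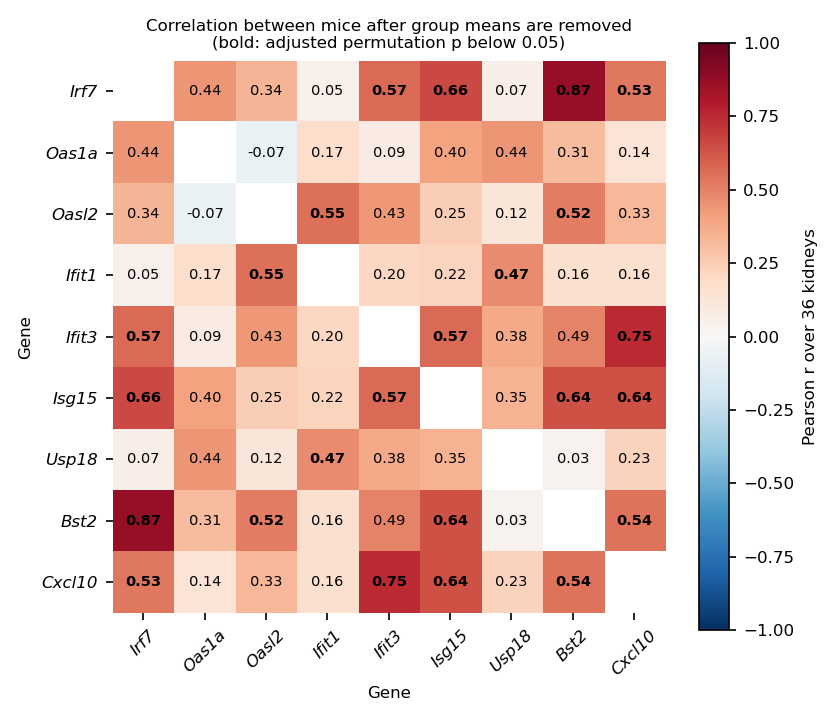
Pearson r between each pair of the 9 genes over 36 kidneys after the mean of each diet and time group was removed, on a colour scale from -1 to 1. Bold type marks an adjusted permutation p under 0.05. Irf7 with Bst2 (0.87) and Ifit3 with Cxcl10 (0.75) are the highest values, and Oas1a with Oasl2 (-0.07) is the lowest.

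Single kidneys stood high or low in most of the genes at once. In the normal chow ZT8 replicate 5 all 9 genes were above their group means, by 0.415 log2 on average, and in the high-fat ZT16 replicate 3 and the normal chow ZT4 replicate 3 all 9 were above as well, by 0.205 and 0.228 log2. In the normal chow ZT4 replicate 4 all 9 were below, by 0.158 log2 on average. Between mice, the T and NK cell score had a positive r with all 9 genes (0.21 to 0.73) and passed for 5 of them, Irf7, Oasl2, Isg15, Ifit3 and Bst2, in 45 relations tested by permutation. The highest was that of Oasl2 (r = 0.73, p = 0.00027, adjusted p = 0.00405; Spearman 0.71, p = 0.00025; 0.66 without the 2 kidneys farthest from the median score; permutation). The macrophage score also had a positive r with all 9 (0.07 to 0.59) and passed for Oasl2 and Bst2. The endothelial and adipocyte scores passed for 0 genes. The genes outside the set with the highest mean r to the 9 were Tmem204 (0.50), Tomm34 (0.48), Lfng (0.47), Tax1bp3 (0.47), Gypc (0.46), Tshz2 (0.46), Olfml3 (0.46), Tpm2 (0.45), Cd300lg (0.45) and B2m (0.45). B2m, the light chain of MHC class I, had a mean of 358 FPKM. Each of the 9 genes was ranked among all tested genes by its own mean r to the other 8. Isg15, Bst2, Irf7, Ifit3 and Cxcl10 ranked 5, 12, 17, 21 and 35. Oasl2, Usp18, Ifit1 and Oas1a ranked 346, 673, 811 and 887, below many genes outside the set.

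The rest of the pathway was read from lists of known genes. Over all tested genes 5.25% rose and 11.4% fell, and the list counts describe the lists and do not test them. Of the 19 genes that passed in these lists, 2 also passed with the adipocyte score as a covariate, 4 with the macrophage score, 5 with the T and NK cell score and 12 without the 4 libraries with adrenal transcripts, counts that were added after the data were seen. Over all genes 585 rose and 1265 fell without a score. These totals were 297 and 553 with the adipocyte, 425 and 1250 with the macrophage and 372 and 868 with the T and NK cell score. Without the 4 libraries they were 640 and 1674. Such totals are the calls of each fit, not the calls kept. Of 11 interferon genes 7 were at 0 in all 36 libraries and 0 passed the filter. Ifng was above 0 in 27 libraries, with 0.0733 ± 0.0521 FPKM in high-fat kidneys and 0.0548 ± 0.0448 FPKM in normal chow kidneys (SD, n = 18 each). Ifnz was above 0 in 34 libraries and had the opposite order, with 0.0507 ± 0.0485 FPKM in high-fat kidneys and 0.0813 ± 0.0661 FPKM in normal chow kidneys. Ifnb1 and Ifnk were above 0 in 1 library each. Of the 5 tested receptor genes 1 rose, Ifngr2 of the interferon-gamma receptor (0.12 ± 0.04 log2, adjusted p = 0.0302), and 1 fell, Ifnar2 of the type I receptor (-0.12 ± 0.04 log2, adjusted p = 0.0456; limma). Ifngr2 did not pass with any of the 3 scores (adjusted p = 0.412 with the adipocyte, 0.143 with the macrophage and 0.150 with the T and NK cell score; limma). Ifnar2 did not pass with the adipocyte score (-0.03 log2, adjusted p = 0.770) or without the adrenal libraries (-0.09 log2, adjusted p = 0.0946; limma). Ifnar1 (-0.06 ± 0.04 log2), Ifngr1 (-0.11 ± 0.05 log2) and Il10rb (-0.11 ± 0.04 log2) did not pass, and Ifnlr1 was under the filter.

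Among 12 tested JAK, STAT and IRF signalling genes 1 rose and 0 fell, with a median of 0.05 log2 (5.25% of all tested genes rose and 11.4% fell). That gene was Irf5, a transcription factor of Toll-like receptor signalling, with 7.76 ± 2.26 FPKM in high-fat kidneys and 6.04 ± 2.13 FPKM in normal chow kidneys (SD, n = 18 each; 0.34 ± 0.10 log2, limma adjusted p = 0.0188). It did not pass with the adipocyte score (adjusted p = 0.223) or the macrophage score (adjusted p = 0.166; limma). Stat2 (-0.10 ± 0.05 log2) and Irf9 (0.05 ± 0.06 log2) did not pass. Of 10 tested nucleic acid sensors and adaptors 3 rose and 0 fell: Ddx58, which encodes the RNA sensor RIG-I (0.21 ± 0.06 log2, adjusted p = 0.0179), Tmem173, which encodes the adaptor STING (0.20 ± 0.06 log2, adjusted p = 0.0271), and Ifih1, which encodes the RNA sensor MDA-5 (0.22 ± 0.07 log2, adjusted p = 0.0401; limma). With each of the 3 scores 0 of these 3 genes passed (lowest adjusted p = 0.0720, Ifih1 with the macrophage score; limma), and without the adrenal libraries Ifih1 did not (0.14 log2, adjusted p = 0.162; limma). Of 3 tested negative regulators 0 passed.

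Of 37 tested other type I interferon-stimulated genes 7 rose and 2 fell, with a median of 0.06 log2 (5.25% of all tested genes rose and 11.4% fell). The 4 with the smallest p were Phf11b (0.32 ± 0.08 log2, adjusted p = 0.00399), Nmi, which binds STAT proteins (0.23 ± 0.05 log2, adjusted p = 0.00421), Oasl1, an OAS-like gene (0.34 ± 0.09 log2, adjusted p = 0.0140), and Ifi44 (0.28 ± 0.09 log2, adjusted p = 0.0233; limma). Nmi passed with the adipocyte score (adjusted p = 0.0340) and the T and NK cell score (adjusted p = 0.0189), Ifi44 with the macrophage score (adjusted p = 0.0324), and Phf11b and Oasl1 with none of the 3 (limma). Of the 9 genes of this list that rose or fell, 7 also passed without the adrenal libraries, all but Ifit3b and Phf11d (Phf11d adjusted p = 0.0507; limma). Ifi27l2a, a small interferon-induced gene, fell by 1.47 ± 0.29 log2 (limma, adjusted p = 0.000654), with 96.7 ± 58.6 FPKM in high-fat kidneys and 282 ± 183 FPKM in normal chow kidneys (SD, n = 18 each). Its difference was -0.29 log2 with the adipocyte score as a covariate and no longer passed (limma, adjusted p = 0.205). Oas1c, a further oligoadenylate synthetase family gene, fell by 0.34 ± 0.09 log2 (limma, adjusted p = 0.00752), opposite to Oas1a, and did not pass with the adipocyte score (adjusted p = 0.118; limma). Of 9 tested GBP and IRG genes, GTPases induced by interferon-gamma, 3 rose and 0 fell, with a median of 0.24 log2, namely Tgtp1 (0.36 ± 0.12 log2, adjusted p = 0.0371), Gbp2 (0.36 ± 0.12 log2, adjusted p = 0.0430) and Tgtp2 (0.33 ± 0.11 log2, adjusted p = 0.0464; limma). Of these 3 genes 0 passed with the macrophage score or with the T and NK cell score as a covariate (lowest adjusted p = 0.256), and 0 passed with the adipocyte score or without the adrenal libraries (lowest adjusted p = 0.10, Tgtp2 without those libraries; limma).

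**Figure D5:**
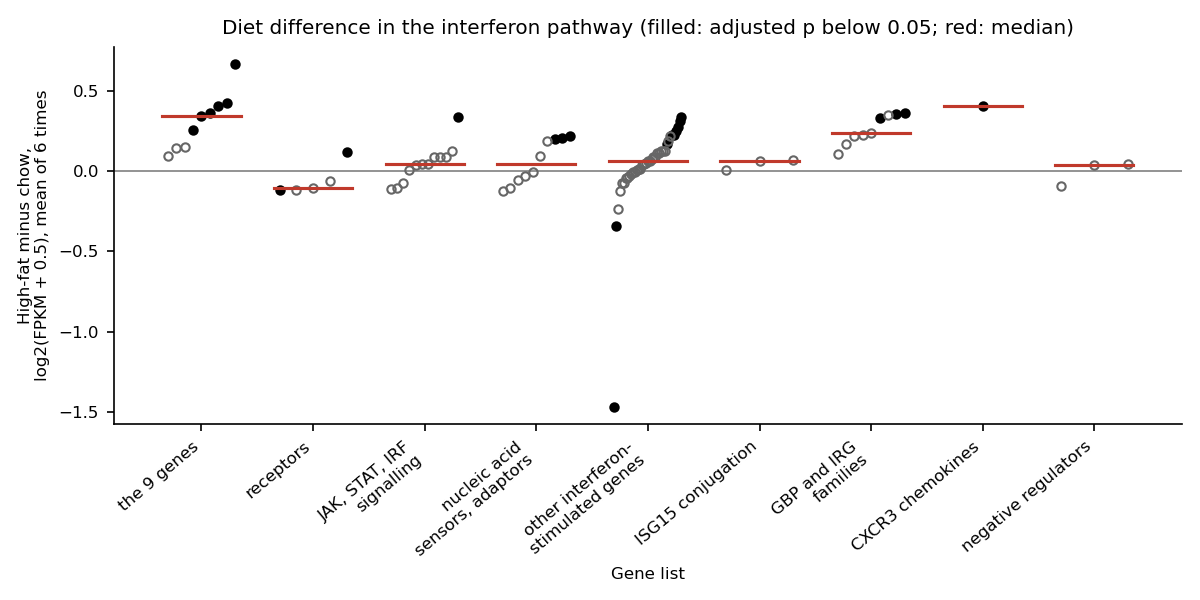
Difference between high-fat diet and normal chow over all times on the log2(FPKM + 0.5) scale (vertical axis) for the tested genes of each list (horizontal axis). Each circle is a gene, filled where the adjusted p was under 0.05, and red bars are list medians. The median of the 9 genes is 0.35 log2, that of the GBP and IRG genes 0.24 log2 and that of the 37 other interferon-stimulated genes 0.06 log2, and Ifi27l2a is the lowest point (-1.47).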

How the data were processed

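The submitters' processing notes name CASAVA 1.8.2, Bowtie, Cuffnorm and the build mm10. The authors deposited FPKM values, in 1 table per diet with the same 24883 rows, and whether 1 Cuffnorm run made both is not given in the sources used here, nor is how reads shared by similar genes were counted. If each diet had its own Cuffnorm run, a difference between runs could not be told apart from diet. The diet tag of every label also mentions ZT3, a time at which no kidney was taken. Rows of repeated symbols (817 rows of 280 symbols) were left out. FPKM is not a count, so log2(FPKM + 0.5) was tested with limma 3.58.1 in R 4.3.3 with a mean-variance trend, for genes with a mean of at least 1 FPKM. Fold changes on this scale understate those of low genes. Among the called genes named here, Ifit1, Cxcl9, Oasl1, Ifih1, Phf11d, Ccr2, Itgax, Cd3g, Cd79a and Cd79b reached a mean of 1 FPKM only through the high-fat kidneys. Depth came from 1893 rarely detected genes, where 95.0% of low values fell on whole fragments to within 0.05. The fit was tested on simulated data. The 9 genes and all lists were chosen with earlier results of these data known. Named genes were the 9, up to 4 called genes per list and direction by p, all interferons, receptors and CXCR3 chemokines, and the 10 genes most like the 9; marker genes were named after their values were seen. Coordinates are from GENCODE M21 and upstream windows from RefSeq. P-values set each difference or relation against the variation between these mice.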

Additional observations from a re-analysis of the deposited data

How the results depend on the processing

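The 6 genes that rose over all times were counted again under each alternative. The count was 3 of 4 tested under a filter at a mean of 5 FPKM, 2 with the macrophage score and 3 with the T and NK cell score as a covariate, and 5 to 7 with each library left out in turn; in the 2 scored fits Bst2 reversed, to -0.07 and -0.06 log2. The single gene and time pair became 0 pairs without the 2 shallowest libraries (chosen after seeing the data), and 3 without the adrenal libraries; it was 0 to 1 with each library left out. It was 0 by construction under the 5 FPKM filter, which removes Cxcl10, and without ZT0 and ZT4, which removes its time. The 2 rhythmic genes under normal chow became 0 with no filter, median ratio or upper quartile rescaling, without the adrenal libraries, without ZT0 and ZT4, with time as a factor and without the 2 shallow libraries, and 0 to 2 with each library left out. The cause of the other changes was not tested, except that the higher filter tests fewer genes and leaving out 2 times leaves fewer kidneys. No alternative made a gene rhythmic under the high-fat diet or found a diet by time or rhythm difference (0 in each). The median r between mice was 0.27 to 0.42 with each library left out. A replicate block left 6 genes (7 with the GC trend also removed), 1 pair and 2 rhythmic genes; same-numbered libraries of the same time had a median r of 0.10 (-0.18 to 0.26 over 12 pairs), so the numbers were not taken to pair the mice. Usp18, Ifit1 and Oas1a, with as few as 6, 8 and 8 estimated fragments in a library, are limited most by depth.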

Other observations

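Between mice of the same diet and time, Oas1a had a negative relation to the B cell score over the 36 kidneys (Pearson r = -0.51, permutation p = 0.00722, adjusted p = 0.0406 over 45 relations; Spearman rho = -0.53, permutation p = 0.00532). Without the 2 kidneys farthest from the median score r was -0.54. The other 8 genes had r between -0.09 and 0.42 with that score, and 0 of them passed.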
